A study of Rattus norvegicus with 8 samples.

Results

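The 5 genes described here are matrix-remodelling genes of the lymphangioleiomyomatosis (LAM) lesion, namely the proteases Mmp2, Mmp9 and Ctsk, the protease inhibitor Timp1 and the secreted matrix protein osteopontin (Spp1). They were chosen by Ensembl rat gene ID (ENSRNOG00000016695, ENSRNOG00000017539, ENSRNOG00000021155, ENSRNOG00000010208 and ENSRNOG00000043451, in that order) and make up 5 of the 23918 genes listed in the expression table. RNA was sequenced from 8 subcutaneous tumours of ELT3-V3 cells, a rat uterine leiomyoma line that lacks functional tuberin, grown in female NOD-scid mice 6 weeks old. Mice were randomised when their tumours had grown to 150 to 200 mm3, and each of 4 groups is represented by 2 tumours. Controls received the vehicle, 0.2% carboxymethylcellulose with 0.25% Tween-80. A second group was given rapamycin alone, at a daily dose of 0.25 mg/kg. The remaining groups were given rapamycin together with a second drug, either clorgyline at a daily 10 mg/kg or rasagiline at a daily 1 mg/kg. For these groups the dose of rapamycin itself is not restated. All tumours came from a single cell line in hosts that lack mature T and B cells.

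LAM cells lack a working TSC1-TSC2 complex, which leaves the kinase complex mTORC1 active, and in the lung they spread within tissue whose elastic and collagen fibres are broken down. The gelatinases MMP2 and MMP9 cut denatured collagen and basement membrane collagen, and cathepsin K is an acid cysteine protease that cuts fibrillar collagen and elastin and is used as a stain for LAM cells. TIMP1 binds and blocks active metalloproteinases but not cathepsins. Osteopontin is a phosphoprotein that binds integrins and CD44 and is itself a substrate of metalloproteinases. Rapamycin inhibits mTORC1, and clorgyline and rasagiline are propargylamine inhibitors of monoamine oxidase, selective for the A and B forms respectively.

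Values are TPM, a measure of transcript abundance that is scaled for gene length and brought to the same sum in every library, so that levels can be set side by side between genes. The 5 genes lay in the same broad order in all tumours. Spp1 was the highest and Mmp2 the second highest of the 5 in 8 of 8 tumours, and Mmp9 was the lowest in 8 of 8. Ctsk stood above Timp1 in 2 of 2 controls and in 1 of 6 treated tumours. Together the 5 genes held between 0.288% and 0.506% of all TPM in a tumour.

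**Figure D1:**
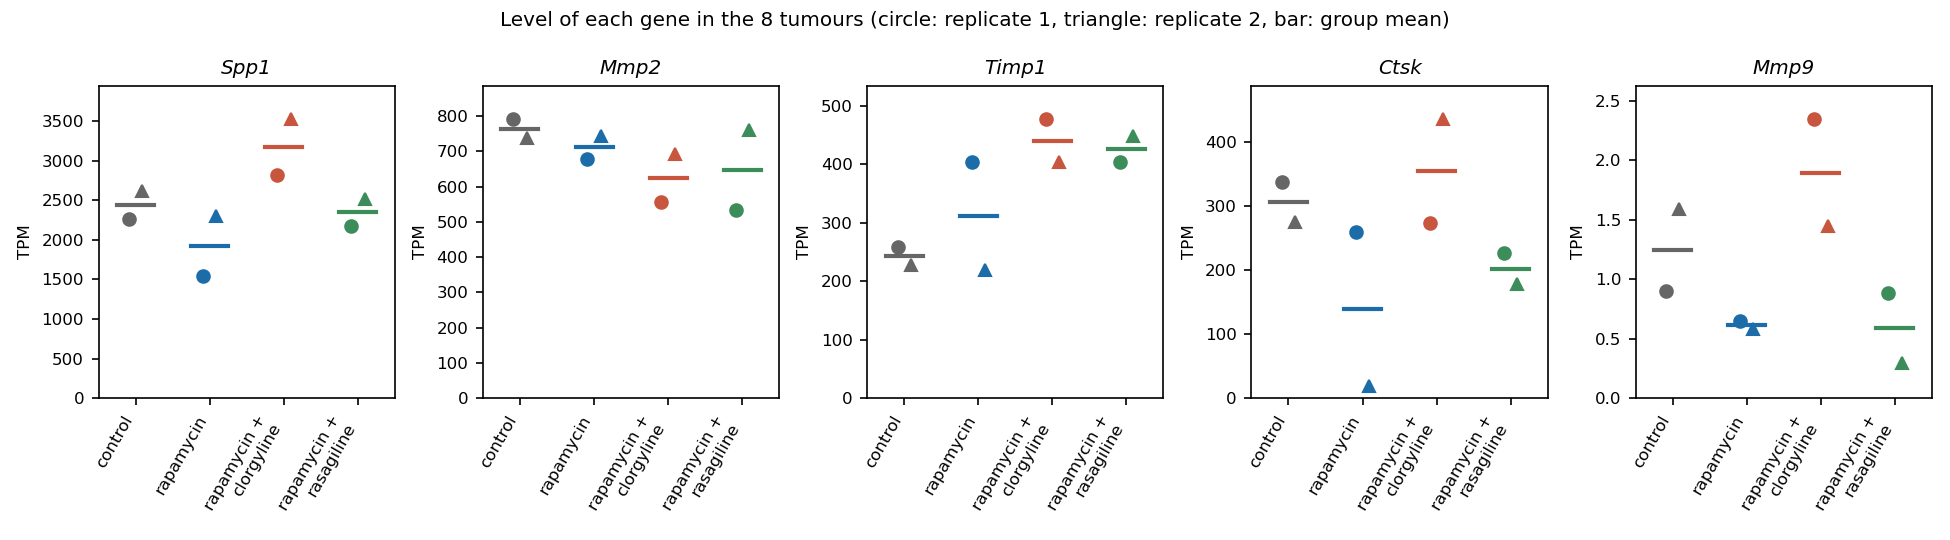
Level of each gene in TPM (vertical axes, from 0, on a different scale for each gene) in the 4 groups; circles are replicate 1, triangles replicate 2 and bars the mean of the 2 tumours. Ctsk stands at 19.05 TPM in a single rapamycin tumour, and Timp1 lies above both controls in 5 of 6 treated tumours.

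None of the 5 genes passed the test in any of 7 comparisons (limma on log2(TPM + 1), adjusted over 13686 genes, threshold 0.05). All 5 were among the genes tested. The share of all tested genes that passed was 0.643% for rapamycin against control, 0.0146% for the clorgyline combination against control, 1.57% for the rasagiline combination against control and 2.44% for all 3 rapamycin-containing groups, taken as their mean, against control. Relative to rapamycin it was 0.00% with clorgyline added and 0.0146% with rasagiline added, and between the combinations it was 0.0219%. At an unadjusted p under 0.05 the same limma fit gave 0 of 5 members for rapamycin against control (18.7% of all genes), 1 with clorgyline added (13.5%), 1 with rasagiline added (19.5%) and 1 for the treated mean (21.9%). Against rapamycin it gave 2 members with clorgyline (7.61%) and 0 with rasagiline (5.81%), and between the combinations 1 (4.60%). The groups did not overlap in 2 of 5 members for rapamycin against control (48.9% of all genes), 3 with clorgyline added (49.0%), 3 with rasagiline added (59.2%) and 0 for all treated tumours (25.1%). They did not overlap in 3 members for clorgyline against rapamycin (34.3%), 0 for rasagiline against rapamycin (31.1%) and 3 between the combinations (36.7%). With 2 tumours a group, a missed call does not show that a gene was unchanged. The 4 comparisons with control share the same 2 control tumours.

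Mmp2 was the most even of the 5 genes. It stood at 791 and 738 TPM in the controls, 679 and 744 TPM with rapamycin, 556 and 692 TPM with clorgyline added, and 534 and 760 TPM with rasagiline added. The highest tumour exceeded the lowest by 1.48-fold, and the rapamycin and rasagiline groups overlapped the controls while the clorgyline group lay below them. The mean of the 3 rapamycin-containing groups differed from control by a log2 fold change of -0.22 (95% interval -0.62 to 0.17; limma adjusted p = 0.471), which corresponds to a fold between 0.652 and 1.13. For rapamycin alone the log2 difference was -0.10 (95% interval -0.59 to 0.38), and for clorgyline and rasagiline added it was -0.30 and -0.26. Leaving out a single tumour moved the latter values to between -0.46 and -0.14 with clorgyline and between -0.52 and -0.0079 with rasagiline. A change of Mmp2 to below 0.652 of the control level therefore lay outside the interval for the mean of the treated groups.

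Ctsk set the widest range. The controls stood at 338 and 275 TPM, the rapamycin tumours at 259 and 19.05 TPM, the clorgyline combination at 274 and 436 TPM, and the rasagiline combination at 227 and 178 TPM. The low value belonged to rapamycin replicate 2, which was 9.32-fold below the next lowest tumour. In the other 7 tumours Ctsk lay between 178 and 436 TPM. Among all 13686 tested genes, 7 had a tumour at least 8-fold below the next lowest on the TPM + 1 scale, and in 6 of these it was rapamycin replicate 2. Ctsk ranked 5 among all genes by the size of this gap.

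That library was the lowest of the 8 for 27.1% of tested genes, against 4.03% to 21.6% in each of the others, while its median log2 level of 3.96 lay within the range of the other libraries (3.87 to 4.12). Their part in the Ctsk value was not tested. In bulk tumour RNA, fewer cells that express a gene and less RNA of it per cell cannot be told apart. Rapamycin alone differed from control in Ctsk by a log2 fold change of -2.08 (SE 0.994, 95% interval -4.41 to 0.25; limma adjusted p = 0.313). Without rapamycin replicate 2 this was -0.23 (95% interval -0.96 to 0.49; limma adjusted p = 0.749), and without rapamycin replicate 1 it was -3.93 (limma adjusted p = 0.00302, in a fit that called 9.59% of all genes), where the remaining tumour is assumed to vary like the other groups. The rapamycin value of Ctsk thus took its size from a single tumour.

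The spread of Ctsk within groups was 1.34 (SD on the log2 scale), above that of 99.3% of tested genes, for a median of 0.248 over all genes. Without rapamycin replicate 2 it was 0.331. Leaving out rapamycin replicate 1 instead gives the same SD, because a lone tumour has no deviation from its own group mean. The fall in SD therefore does not tell which rapamycin tumour set the spread. The within-group spread enters every Ctsk interval, also where the rapamycin group is not compared. For the rasagiline combination against control, both tumours lay below both controls, with a log2 difference of -0.60 and a 95% interval from -2.93 to 1.73 (limma adjusted p = 0.778). With rapamycin replicate 2 left out, the same difference had an interval from -1.19 to -0.005 and a limma adjusted p of 0.198. For the clorgyline combination the log2 difference from control was 0.18, and the groups overlapped.

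**Figure D2:**
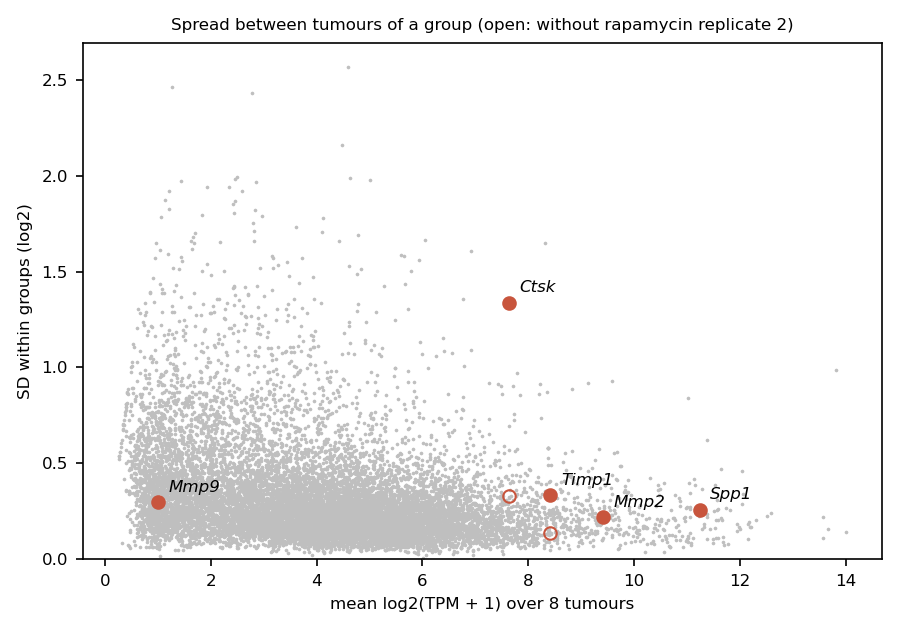
SD between tumours of the same group, pooled over groups (vertical axis, log2), against the mean log2(TPM + 1) over 8 tumours (horizontal axis) for the 13686 tested genes in grey and the 5 genes in red. Ctsk stands at 1.34, above most genes of like level, and at 0.331 without rapamycin replicate 2 (open circle). The other open circle is Timp1, which stands at 0.332 with all tumours and at 0.136 without that library. Leaving out rapamycin replicate 1 instead gives the same SDs.

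Mmp9 was scarcely present. It stood at 0.904 and 1.59 TPM in the controls, 0.652 and 0.585 TPM with rapamycin, 2.34 and 1.45 TPM with clorgyline added, and 0.888 and 0.294 TPM with rasagiline added. It reached 1 TPM in 3 of 8 tumours, and its mean log2 level was at percentile 6.38 of the tested genes. In the same tumours Mmp2 was present at 534 TPM or more, so nearly all RNA assigned to the rat genes Mmp2 and Mmp9 was that of Mmp2. Gelatinase RNA of the mouse host was not measured separately.

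The order of the Mmp9 group means was rasagiline combination (0.591 ± 0.420 TPM), rapamycin (0.618 ± 0.0474), control (1.25 ± 0.483) and clorgyline combination (1.90 ± 0.635; SD, n = 2 each). Both clorgyline tumours lay above all rapamycin and rasagiline tumours but overlapped the controls. The log2 difference of the clorgyline combination was 0.82 from rapamycin (95% interval 0.05 to 1.59; limma adjusted p = 0.634) and 0.87 from the rasagiline combination (95% interval 0.10 to 1.64; limma adjusted p = 0.997). Neither passed, and the sizes depended on the pseudocount: the first was 1.44 at 0.1 TPM and 0.29 at 5 TPM, and the second 1.64 and 0.30. The 2 inhibitors were given at different doses, 10 and 1 mg/kg per day. TPM keeps no read depth, so the number of reads behind values near 1 TPM is unknown.

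Timp1 had the lowest adjusted p of the 5 genes against control in both combinations and in the mean of the treated groups, though it did not pass. It stood at 258 and 228 TPM in the controls, 405 and 220 TPM with rapamycin, 477 and 405 TPM with clorgyline added, and 404 and 449 TPM with rasagiline added. Thus 5 of 6 treated tumours lay between 404 and 477 TPM, above both controls, and rapamycin replicate 2 lay below them. The share of all tested genes with 5 of 6 treated tumours above both controls was not computed. The group means, from low to high, were 243 ± 21.03 TPM in controls, 312 ± 131 with rapamycin, 426 ± 32.03 with rasagiline added and 441 ± 51.2 with clorgyline added (SD, n = 2 each), and no neighbours in this order differed by the test.

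The mean of the 3 rapamycin-containing groups exceeded control in Timp1 by a log2 fold change of 0.65 (SE 0.225, 95% interval 0.13 to 1.18; limma adjusted p = 0.155), on a ratio of mean TPM of 1.62. Over all tested genes the median difference was 0.105 here, and after median rescaling, which brings it to -0.004, the Timp1 difference was 0.55 (limma adjusted p = 0.206). For the clorgyline combination the log2 difference from control was 0.85 (95% interval 0.21 to 1.499; limma adjusted p = 0.261), and for the rasagiline combination 0.81 (95% interval 0.17 to 1.45; limma adjusted p = 0.175). In both combinations all Timp1 values lay above both controls, as was so for 29.3% and 41.0% of tested genes. For rapamycin alone the groups overlapped and the log2 difference was 0.30 (95% interval -0.35 to 0.94; limma adjusted p = 0.584).

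Leaving out a rapamycin tumour changed whether Timp1 passed. The differences of the combinations from control do not use the rapamycin group and were unchanged, at 0.85 with clorgyline and 0.81 with rasagiline. The spread shared by all groups did change: without rapamycin replicate 2 the SE of these differences was 0.149, against 0.275 with all tumours. The within-group SD is the same whichever rapamycin tumour is left out, so the smaller SE does not tell the 2 tumours apart. Without rapamycin replicate 2, Timp1 passed for the treated mean against control, at 0.80 on the log2 scale (95% interval 0.50 to 1.10; limma adjusted p = 0.019), in a fit that called 7.47% of all genes. The rasagiline combination against control also passed in that fit (limma adjusted p = 0.0287, with 6.96% of all genes called), as it did without rapamycin replicate 1 (limma adjusted p = 0.0285, with 6.88% called), and the clorgyline combination did not (limma adjusted p = 0.0573). For rapamycin against control, the log2 difference was 0.74 without rapamycin replicate 2 and -0.14 without rapamycin replicate 1. Leaving out either control kept the direction of the mean difference, at 0.74 and 0.57, but the limma adjusted p was 0.427 and 0.544.

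**Figure D3:**
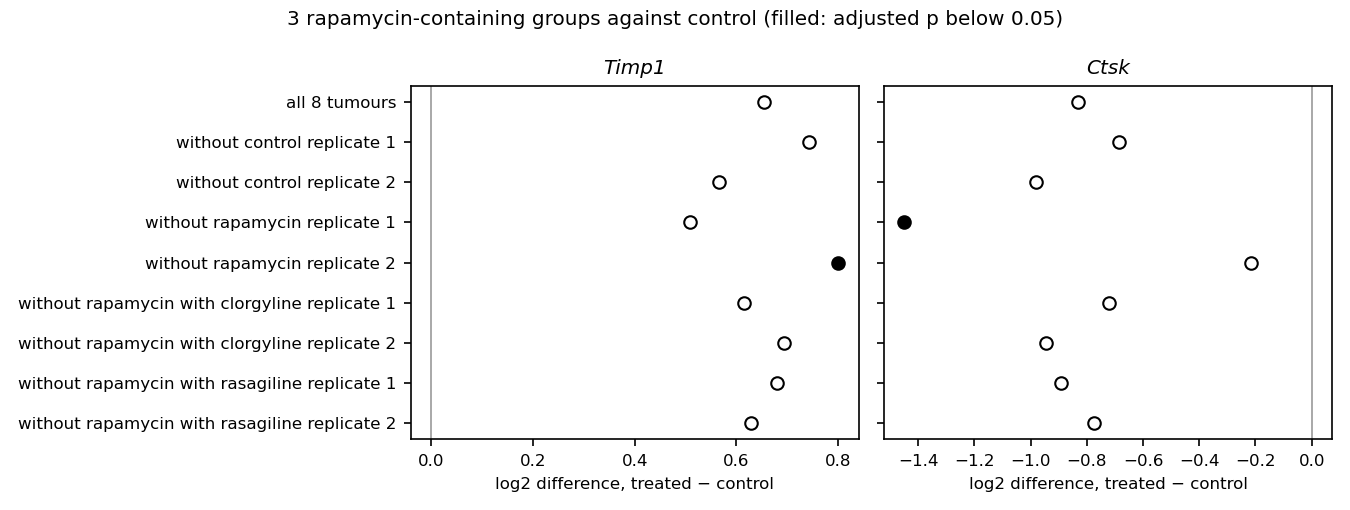
Log2 difference of the 3 rapamycin-containing groups from control (horizontal axes) for Timp1 and Ctsk with all 8 tumours and with each tumour left out (vertical axis); filled circles passed the limma test. Timp1 stays between 0.51 and 0.80 and passes without rapamycin replicate 2, whereas Ctsk runs from -1.45 to -0.22 and passes without rapamycin replicate 1.

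Each protease was also set against its library's own Timp1 level, since a ratio within a tumour does not depend on how the library was scaled. Ctsk per Timp1 was 1.31 and 1.21 in the controls. In the treated tumours it was 0.640 and 0.0867 with rapamycin, 0.574 and 1.08 with clorgyline added, and 0.563 and 0.396 with rasagiline added. All 6 treated tumours lay below both controls, as did the ratio to Timp1 of 25.04% of the 13174 tested genes above 0 in every tumour. Over these genes the median difference in log2 ratio between treated and control tumours was -0.55, and Timp1 itself lay above both controls in 5 of 6 treated tumours. For Ctsk the difference in mean log2 ratio was -1.502 (exact permutation test, two-sided, p = 0.0714, the smallest that 2 against 6 tumours can give; 0.214 adjusted over the 3 ratios), and it was -1.03 without rapamycin replicate 2. TIMP1 does not inhibit cathepsin K, so this ratio compares RNA levels and is no measure of protease activity.

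Mmp2 per Timp1 was 3.07 and 3.24 in the controls, 1.68 and 3.38 with rapamycin, 1.17 and 1.71 with clorgyline added, and 1.32 and 1.69 with rasagiline added. The ratio lay below both controls in 5 of 6 treated tumours and above them in rapamycin replicate 2. For this count, and for that of Mmp9 below, no share of all genes was computed. For Mmp2 the difference in mean log2 ratio was -0.88 (exact permutation test, two-sided, p = 0.214, and 0.214 adjusted), and -1.08 without rapamycin replicate 2. The median difference in log2 ratio to Timp1 over the 13174 genes was -0.55. Mmp9 per Timp1 was lower than both controls in 4 of 6 treated tumours, with a difference of -1.18 (exact permutation test, two-sided, p = 0.214, and 0.214 adjusted) that was -1.67 without control replicate 1 and -0.68 without control replicate 2.

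**Figure D4:**
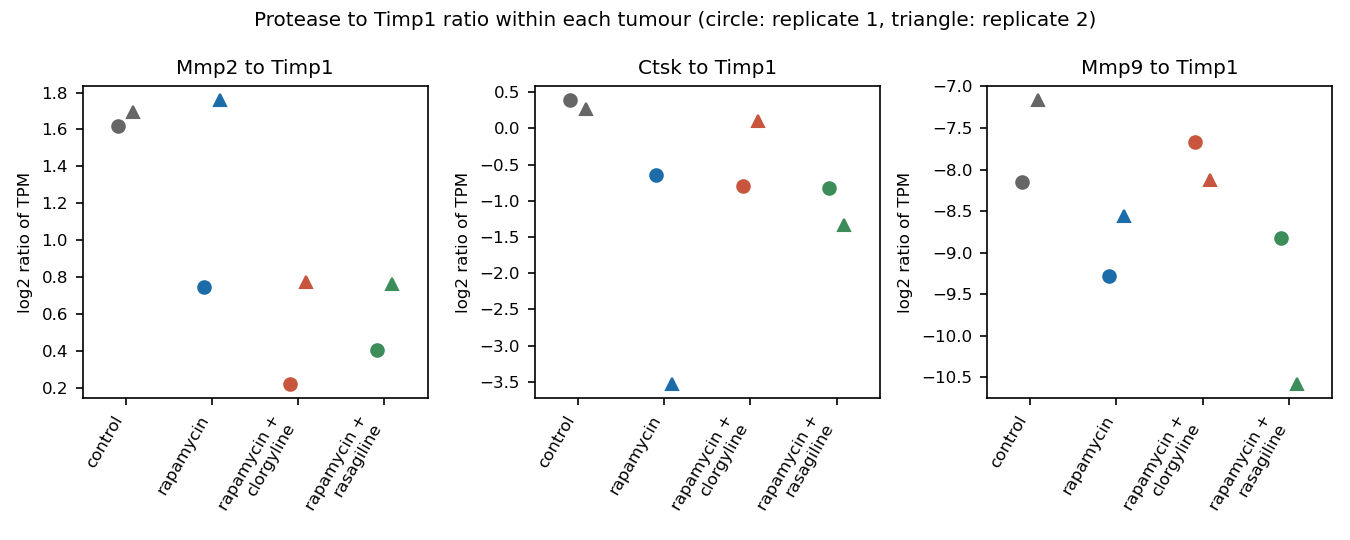
Log2 ratio of the TPM of each protease to that of Timp1 in the same tumour (vertical axes, scaled to each ratio) by group; circles are replicate 1 and triangles replicate 2. For Ctsk all 6 treated tumours lie below both controls, and for Mmp2 rapamycin replicate 2 lies with the controls.

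Spp1 was among the most abundant RNAs of these tumours, with ranks between 25 and 104 among all genes of a library. It stood at 2270 and 2624 TPM in the controls, 1539 and 2305 TPM with rapamycin, 2823 and 3526 TPM with clorgyline added, and 2181 and 2517 TPM with rasagiline added. Both clorgyline tumours were above all 6 others, and rapamycin replicate 1 was the lowest. The mean of the treated groups differed from control by a log2 fold change of -0.02 (95% interval -0.47 to 0.43; limma adjusted p = 0.963), so that the interval ran from a fold of 0.722 to 1.35.

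The group means of Spp1, from low to high, were 1922 ± 541 TPM with rapamycin, 2349 ± 238 with rasagiline added, 2447 ± 251 in controls and 3174 ± 497 with clorgyline added (SD, n = 2 each). The widest step was from rapamycin to the clorgyline combination, with a log2 difference of 0.74 (95% interval 0.19 to 1.29) that did not pass (limma adjusted p = 0.573). It was 0.45 without rapamycin replicate 1 and 1.03 without rapamycin replicate 2. The clorgyline combination differed from control by 0.37 (95% interval -0.18 to 0.92; limma adjusted p = 0.537) and from the rasagiline combination by 0.43 (95% interval -0.12 to 0.98; limma adjusted p = 0.997). Without clorgyline combination replicate 1 these were 0.53 and 0.59, and without its replicate 2 they were 0.21 and 0.27.

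Setting the combinations side by side, Timp1 had a log2 difference of 0.05 between clorgyline and rasagiline (95% interval -0.60 to 0.69) and Mmp2 one of -0.04 (95% interval -0.52 to 0.44). Ctsk, Mmp9 and Spp1 were higher with clorgyline in both tumours, as were 9.76% of tested genes, and none of the 3 passed. The difference in Ctsk was 0.78, with a 95% interval from -1.55 to 3.11 (limma adjusted p = 0.997). Against rapamycin alone, the rasagiline combination overlapped it in all 5 genes, and the largest log2 difference was that of Ctsk at 1.48 (95% interval -0.84 to 3.81; limma adjusted p = 0.954), which was -0.37 without rapamycin replicate 2. Without rapamycin replicate 1, the combinations were set against rapamycin replicate 2 alone, the library lowest for 27.1% of genes, with the spread taken from the other groups. Ctsk and Timp1 then passed in both comparisons, where 3.16% of all genes passed with clorgyline and 2.98% with rasagiline. Ctsk was higher by 4.11 with clorgyline and 3.33 with rasagiline on the log2 scale (limma adjusted p = 0.00709 and 0.0124), and Timp1 by 0.996 and 0.950 (limma adjusted p = 0.0421 and 0.0464).

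**Figure D5:**
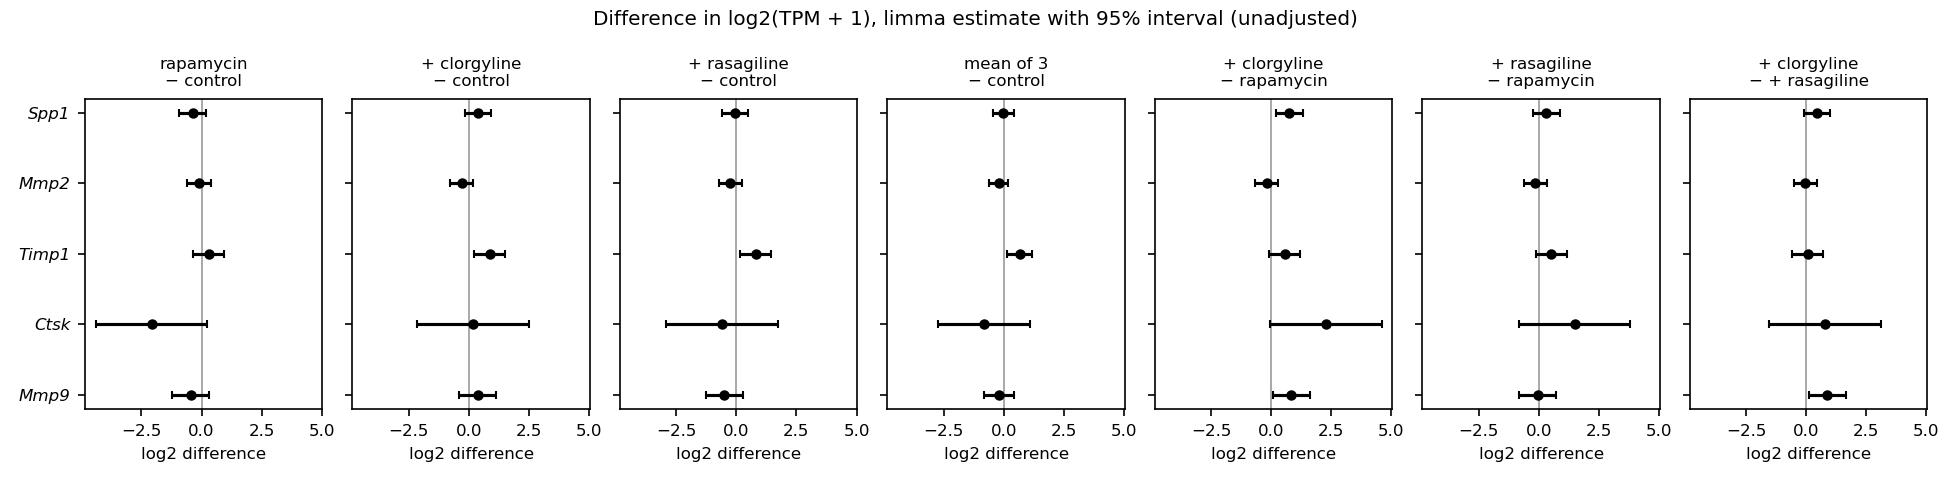
Limma estimates of the difference in log2(TPM + 1) with 95% intervals, unadjusted (horizontal axes), for the 5 genes in 7 comparisons; "+ clorgyline" and "+ rasagiline" stand for rapamycin with that drug. Intervals of Timp1 lie above 0 for both combinations and for the treated mean against control, yet no comparison passed after adjustment, and the Ctsk intervals are the widest.

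No pair of the 5 genes was correlated past the test from tumour to tumour. Over the 10 pairs of genes, Pearson's r across the 8 tumours ran from -0.58 (Mmp2 and Timp1) to 0.52 (Mmp9 and Spp1), and 0 pairs passed an exact permutation test (smallest adjusted p = 0.551 for r and 0.458 for Spearman's rho). The test does not take the 4 groups into account, so values from deviations around the group means are given for some pairs, as a description. With 2 tumours a group, the deviations within a group are equal and opposite, so few independent values lie behind each. Those largest in size were -0.91 for Mmp2 and Mmp9, 0.87 for Ctsk and Timp1, and -0.87 for Timp1 and Spp1. The highest rho was 0.74, for Mmp9 and Ctsk (exact permutation p = 0.0458, the only unadjusted p under 0.05, and 0.458 adjusted). For this pair r was 0.44 (exact permutation p = 0.275), 0.61 without the 2 tumours farthest from the median of Mmp9, and -0.0056 within groups. For Mmp2 and Timp1, rho was -0.36 (exact permutation p = 0.131 for r and 0.389 for rho), and r was -0.47 without the 2 tumours farthest from the median of Mmp2 and -0.16 within groups. For Mmp9 and Spp1, rho was 0.55 (exact permutation p = 0.177 for r and 0.171 for rho), and r was 0.74 without the 2 tumours farthest from the median of Mmp9. Within groups r was -0.33, of the opposite sign. Ctsk and Timp1, which were both lowest in rapamycin replicate 2, had r = 0.47 and rho = 0.05 (exact permutation p = 0.232 and 0.935). Without rapamycin replicate 2 their r was -0.29, and without the 2 tumours farthest from the median of Ctsk it was -0.60, so the positive value rested on that tumour. Within groups, with that tumour included, r was 0.87. The rapamycin tumours lay 1.85 to either side of their group mean in Ctsk and 0.44 in Timp1 (log2), the widest deviations of both genes. Among all tested genes, 4.86% followed Spp1 more closely than Mmp9 did, and 25.6% followed Timp1 more closely than Ctsk did.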

How the data were processed

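The authors deposited TPM values, listed by Ensembl ID for 23918 rat genes in 8 tumours, and every library sums to 1000000. Per the labels' protocols, total RNA was isolated with TRIzol and sequenced from Illumina TruSeq libraries. Tools named in the submitters' processing notes, with no role stated, are STAR 2.4.0f1, SAMtools 0.1.18, bedtools and DESeq2, along with build rn6. How TPM was computed and whether mouse reads were removed is not given in the sources used here, so host RNA may be included. Read depth is unknown, and no counting interval was computed. Titles gave the groups. Nothing states that each tumour came from its own mouse, so p-values reflect the spread between these tumours.

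Genes with at least 1 TPM in at least 2 libraries (13686) were fitted as log2(TPM + 1) with limma 3.58.1 in R 4.3.3, using 4 group means over all tumours (4 residual degrees of freedom), a variance trend, two-sided tests and Benjamini-Hochberg adjustment. This scale understates fold changes of low genes, here Mmp9. Simulations (20 runs, 200 changed genes) gave the share of changes that the limma fit recovers. For a log2 change of 1 it was 23.65% for rapamycin against control and 42.15% for the treated mean against control. For a log2 change of 2 it was 75.4% and 84%. Of the calls, 4.99% and 5.58% were false. All Timp1 differences from control were below 1 on the log2 scale. In both simulated comparisons most changes of 1 were missed, as an average over the changed genes. The combinations against control were not simulated, and whether these rates hold for Timp1 was not tested. Ratios and correlations used exact permutation tests (SciPy 1.17.1). The file pairs no ID with a symbol, and 0 of 47357 reference entries (GRCr8) carried an Ensembl ID. The 5 names come with the rule that chose the genes. The 9 pathway lists and 9 cell type marker lists kept by symbol were therefore not used here, so the labelled cell type was not checked against markers. All named genes are members, and the genes most like each could not be named. The members and lists were chosen with earlier results of these data known.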

Additional observations from a re-analysis of the deposited data

How the results depend on the processing

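With only 2 tumours a group and unknown depth, the count of members called stayed at 0 under most alternatives: other pseudocounts (0.1 or 5 TPM), filters, scalings, variance moderation without a trend, array weights and a fit of only the groups compared. For the rasagiline combination against control it was 1 with array weights and 1 with only those groups fitted (Timp1, limma adjusted p = 0.0349 and 0.047), in fits that called 10.3% and 4.37% of all genes. Of 303 such fold changes, 1 changed sign, Mmp2 between the combinations, which was 0.060 after median rescaling. Under quantile normalization the correlation became 0.16 for Mmp2 and Spp1, -0.21 for Mmp9 and Timp1 and -0.068 for Timp1 and Spp1. Mmp9 has no value under a filter of 5 TPM, and the mean of the 3 groups uses all groups already. No paired analysis was possible because the codes before each title's group name are not explained, and the letter they share most widely (E, in a control and in a tumour of each combination) includes no tumour given rapamycin alone.

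Leaving out single libraries gave 0 to 1 members for rapamycin, the rasagiline combination and the mean of the 3 groups against control, and 0 to 2 for each combination against rapamycin (Ctsk and Timp1, both without rapamycin replicate 1). The fits with a member called also called 6.88% to 9.59% of all genes against control and 2.98% to 3.16% against rapamycin. Of 280 log2 fold changes, 16 changed sign, none of them called. Their ranges against control were -0.14 to 0.74 for Timp1 with rapamycin, -0.15 to 0.51 for Ctsk with clorgyline, -0.16 to 0.046 for Spp1 with rasagiline, and for the mean -0.42 to 0.022 for Mmp9 and -0.13 to 0.084 for Spp1. For rasagiline against rapamycin they were -0.41 to 0.10 for Mmp2, -0.32 to 0.22 for Mmp9 and -0.37 to 3.33 for Ctsk. Between the combinations they were -0.29 to 0.22 for Mmp2 and -0.073 to 0.16 for Timp1. Correlations ranged from -0.33 to 0.14 (Mmp2 and Ctsk), -0.17 to 0.18 (Mmp2 and Spp1), -0.31 to 0.37 (Mmp9 and Timp1), -0.29 to 0.64 (Ctsk and Timp1), -0.027 to 0.44 (Ctsk and Spp1) and -0.090 to 0.38 (Timp1 and Spp1). The cause of these changes was not tested.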
